A study of Mus musculus with 5 samples.

Results

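The Clec genes encode proteins with a C-type lectin domain, and they were taken here as every row of the deposited gene table whose symbol starts with Clec followed by a number and a letter. This gave 33 of the 21878 genes of the table. They were compared between 3 Kdm6a-deficient samples (genotype Kdm6a KO, strain Kdm6aF/Y;Lyz2-Cre, replicates 1, 2 and 3) and 2 wild-type samples (genotype Kdm6a WT, strain Kdm6aF/Y, replicates 1 and 3). Kdm6a encodes a histone demethylase. All 5 samples were bone marrow-derived macrophages (BMDMs) under lipopolysaccharide (LPS), and both genotypes carried the floxed Kdm6a allele. The Cre recombinase was driven by Lyz2, a lysozyme gene of myeloid cells, so that cells of other lineages in a culture would keep Kdm6a. The wild-type strain is named without Lyz2-Cre, so the presence of Cre and the loss of Kdm6a cannot be told apart here. For BMDMs in general the methods of the study describe marrow of 10-week-old male mice, kept 6 days in 10 ng/ml M-CSF, a macrophage growth factor, then 3 days without, and 100 ng/ml LPS for 24 h as the M1 stimulus. They also describe the RNA of each sample as pooled. No source used here states that the samples came from separate animals, so the p-values below refer to the spread among these samples alone, which may be technical.

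C-type lectin receptors sit on the surface of macrophages, dendritic cells and other leukocytes, where many of them bind sugars or lipids of microbes or ligands released by damaged cells. Activating receptors signal through an ITAM-like motif of their own, or through the adaptor chains Fcer1g and Tyrobp, to the kinase Syk and from there through Card9, Bcl10 and Malt1 to NF-kB. Others carry an inhibitory motif that recruits the phosphatases Ptpn6 and Ptpn11. Many of the genes lie in a pair of clusters on mouse chromosome 6. The Dectin-1 cluster is named after the beta-glucan receptor Dectin-1 (Clec7a) and the Dectin-2 cluster after the mannan receptor Dectin-2 (Clec4n). In the RefSeq annotation of GRCm38.p6, which held the GeneIDs of all 33 genes, 25 of them were on chromosome 6. The members comprised 6 genes of the Dectin-1 cluster, 9 of the Dectin-2 cluster and 18 others, and the deposited table annotated 24 of the 33 with carbohydrate binding.

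The promoters of 3 receptors that rose in Kdm6a-deficient BMDMs, Clec7a, Clec4e and Clec4a1, are shown beside that of Clec4d, the most abundant member, which did not pass the test. Each is the RefSeq window from 250 bases before to 50 bases after a start site in GRCm38.p6, 5′ to 3′ on the strand of the gene. The windows are chr6:129472730-129473029 on the minus strand for Clec7a (1 of its 2 windows), chr6:123289822-123290121 on the minus strand for Clec4e, chr6:122921598-122921897 on the plus strand for Clec4a1 and chr6:123261857-123262156 on the plus strand for Clec4d. Capitals mark matches, on either strand, to GAGGAA, a core of sites of the myeloid factor PU.1, and to TTGCNNAA, a C/EBP motif.
Clec7a: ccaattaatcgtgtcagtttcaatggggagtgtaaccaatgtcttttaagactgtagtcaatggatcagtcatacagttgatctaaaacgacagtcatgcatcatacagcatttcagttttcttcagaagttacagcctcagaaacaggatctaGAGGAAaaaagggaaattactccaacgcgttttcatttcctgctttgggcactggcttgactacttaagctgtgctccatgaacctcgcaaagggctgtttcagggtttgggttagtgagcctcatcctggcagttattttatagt
Clec4e: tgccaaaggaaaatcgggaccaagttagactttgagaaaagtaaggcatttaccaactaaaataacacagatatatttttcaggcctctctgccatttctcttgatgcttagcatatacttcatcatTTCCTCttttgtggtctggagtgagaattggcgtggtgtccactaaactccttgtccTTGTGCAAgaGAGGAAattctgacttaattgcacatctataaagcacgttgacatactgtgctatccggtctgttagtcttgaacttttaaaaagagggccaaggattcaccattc
Clec4a1: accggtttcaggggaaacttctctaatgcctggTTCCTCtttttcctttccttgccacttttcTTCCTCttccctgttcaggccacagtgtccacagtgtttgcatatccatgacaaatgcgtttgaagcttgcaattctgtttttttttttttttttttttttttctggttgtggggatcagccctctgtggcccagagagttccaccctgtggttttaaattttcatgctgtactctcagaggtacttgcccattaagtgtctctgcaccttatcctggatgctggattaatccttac
Clec4d: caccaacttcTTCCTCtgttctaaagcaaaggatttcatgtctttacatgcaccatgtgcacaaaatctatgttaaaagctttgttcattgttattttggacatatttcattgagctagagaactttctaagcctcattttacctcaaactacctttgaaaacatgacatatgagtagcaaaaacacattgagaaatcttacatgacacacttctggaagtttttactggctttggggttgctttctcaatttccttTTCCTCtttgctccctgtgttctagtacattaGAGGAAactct
The letters of PU.1 stood in all 4 windows, once for Clec7a, at 2 places for Clec4e and Clec4a1 and at 3 for Clec4d, and those of C/EBP in the Clec4e window alone among these 4. No matches overlapped each other in them. Of the 13 tested members with a window, 9 held the PU.1 letters, against 28.3% of the 32851 RefSeq windows of the same length, where a member with several windows counted if any held them. The C/EBP letters were in 4 of the 13 (10.8% of all windows) and the AP-1 motif TGANTCA in 2 (7.81%), while the Stat motif TTCNNNGAA was in 1 (8.3%) and the E-box CACGTG in none (7.15%). None of these motifs was in the window of Clec1b, which also rose and is not shown. Motif matches are a description of the letters and were not tested for binding.

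Levels are given in FPKM (fragments normalised for transcript length and for the number mapped in a library). The test was limma on log2(FPKM + 1) over 10893 genes, with p-values adjusted over all of them by Benjamini-Hochberg and a threshold of 0.05. On this scale the fold changes of low genes are understated. Kdm6a itself was at 2.81, 1.77 and 2.44 FPKM in Kdm6a-deficient samples and 3.72 and 2.91 FPKM in wild-type samples (log2 fold change −0.38, limma adjusted p = 0.268), and a value per gene does not resolve the floxed part of the transcript. Of 8 macrophage markers, all tested, 0 were higher and 1, Lyz2, was lower in limma. Lyz2 was at 8260, 9119 and 9127 FPKM in Kdm6a-deficient samples, against 18563 and 19359 FPKM in wild-type samples (log2 fold change −1.10, limma adjusted p = 0.00722). Lyz2 is also the gene of the Lyz2-Cre allele, which is named in the Kdm6a-deficient strain only. The part of that allele in the Lyz2 value was not tested. Adgre1, the macrophage antigen F4/80, was at 734 to 831 against 736 and 745 FPKM. Of the 8, 3 lay above both wild-type samples in every Kdm6a-deficient sample, 2 lay below and 3 overlapped. Of the monocyte markers 2 of 6 tested (Ly6c2 and Plac8) were higher in limma, and the 7 markers summed to 314 to 344 FPKM in Kdm6a-deficient and 293 and 292 FPKM in wild-type samples, with none at 0 in all samples. The largest part of this sum was Chil3 (147 to 168 against 137 and 139 FPKM). Of the 6 tested, 3 lay above both wild-type samples in every Kdm6a-deficient sample, 0 lay below and 3 overlapped. Over all tested genes 1.73% were called higher and 2.18% lower in limma. The part of these markers in the Clec values was not tested. Between 10641 and 10702 genes reached 1 FPKM in Kdm6a-deficient samples, and 10769 and 10693 in wild-type samples. Along the second principal component Kdm6a-deficient sample 2 was at −14.54, while samples 1 and 3 of that genotype were at 9.22 and 4.31, and the wild-type samples at 7.68 and −6.67. The FPKM values do not give the depth of each sample, which is unknown here. The authors' mean normalised counts summed to 18933944 for Kdm6a-deficient and 19003670 for wild-type BMDMs. These were scaled between samples and so do not give the depth either, and the wild-type mean includes a sample not analysed here.

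BMDMs expressed the Clec genes at very different levels. Of the 33 members, 15 reached 1 FPKM in at least 2 samples and entered the test, 13 were detected below this level and 5 were listed at 0 in all 5 samples. Of the 15, 12 were at 1 FPKM or more in both wild-type samples. The other three, Clec1b, Clec10a and Clec2i, passed this filter through Kdm6a-deficient samples alone. The summed level of the 33 genes was 1719, 1760 and 1734 FPKM in Kdm6a-deficient samples 1, 2 and 3, against 1473 and 1462 FPKM in wild-type samples 1 and 3. The Dectin-2 cluster held 83.4%, 83.4% and 83.9% of this sum in the Kdm6a-deficient samples, and 84.4% and 84.6% in the wild-type samples. The Dectin-1 cluster held 11.6%, 11.3% and 11.3%, against 10.2% and 9.99%.

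**Figure D1:**
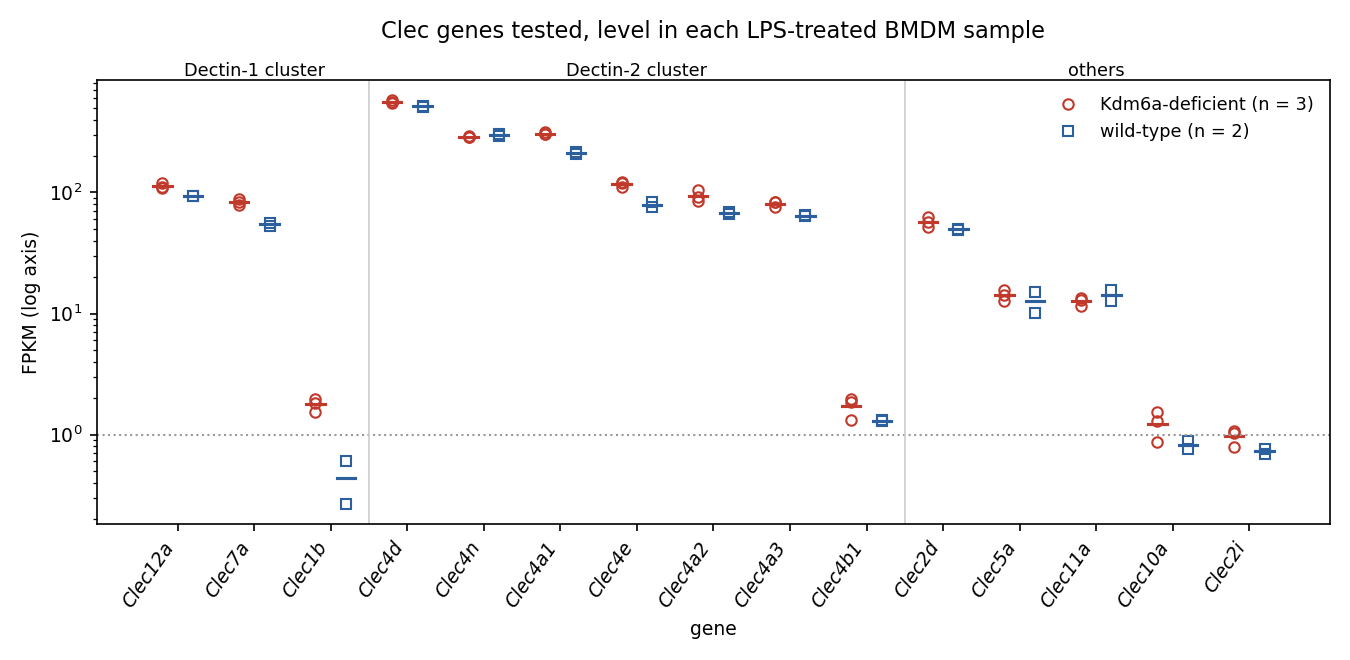
FPKM on a log axis of the 15 tested Clec genes in each sample, with circles for the 3 Kdm6a-deficient samples, squares for the 2 wild-type samples and a bar at each mean; the dotted line is 1 FPKM. Clec4d is the highest in both genotypes, and Clec1b is at 1.55 to 1.97 FPKM in Kdm6a-deficient samples against 0.269 and 0.605 FPKM in wild-type samples.

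Of the 15 tested Clec genes, 4 rose in Kdm6a-deficient BMDMs (Clec7a, Clec1b, Clec4a1 and Clec4e), 0 fell and 11 did not pass. At an unadjusted p under 0.05 there were 7 of the 15, against 1880 of all tested genes. Across all tested genes 1.73% were called higher and 2.18% were called lower. Among the 12 members that were at 1 FPKM or more in both wild-type samples, 3 rose. In 10 of the 15 every Kdm6a-deficient value exceeded every wild-type value, which held for 16.7% of all tested genes, and in 1, Clec4n, they lay below both, which held for 19.2%. Of the 12 members at 1 FPKM or more in both wild-type samples, 8 lay above, 1 lay below and 6 had an unadjusted p under 0.05. The median log2 fold change was 0.28 over the 15 members and 0.25 over the 12, against 0.005 over all tested genes. The 4 calls depended on single samples. Without wild-type sample 3 none of them passed in limma, without Kdm6a-deficient sample 3 only Clec1b did, and without wild-type sample 1 Clec4a1 did not. Without Kdm6a-deficient sample 2 there were 6 higher Clec genes. Calls over all tested genes also depended on single samples. They were 188 higher and 238 lower with all 5 samples, 281 and 397 without Kdm6a-deficient sample 2 and 55 and 62 without Kdm6a-deficient sample 3. With each sample left out the log2 fold change was 0.55 to 0.64 for Clec7a and 0.79 to 1.13 for Clec1b. It was 0.50 to 0.54 for Clec4a1 and 0.49 to 0.62 for Clec4e.

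**Figure D2:**
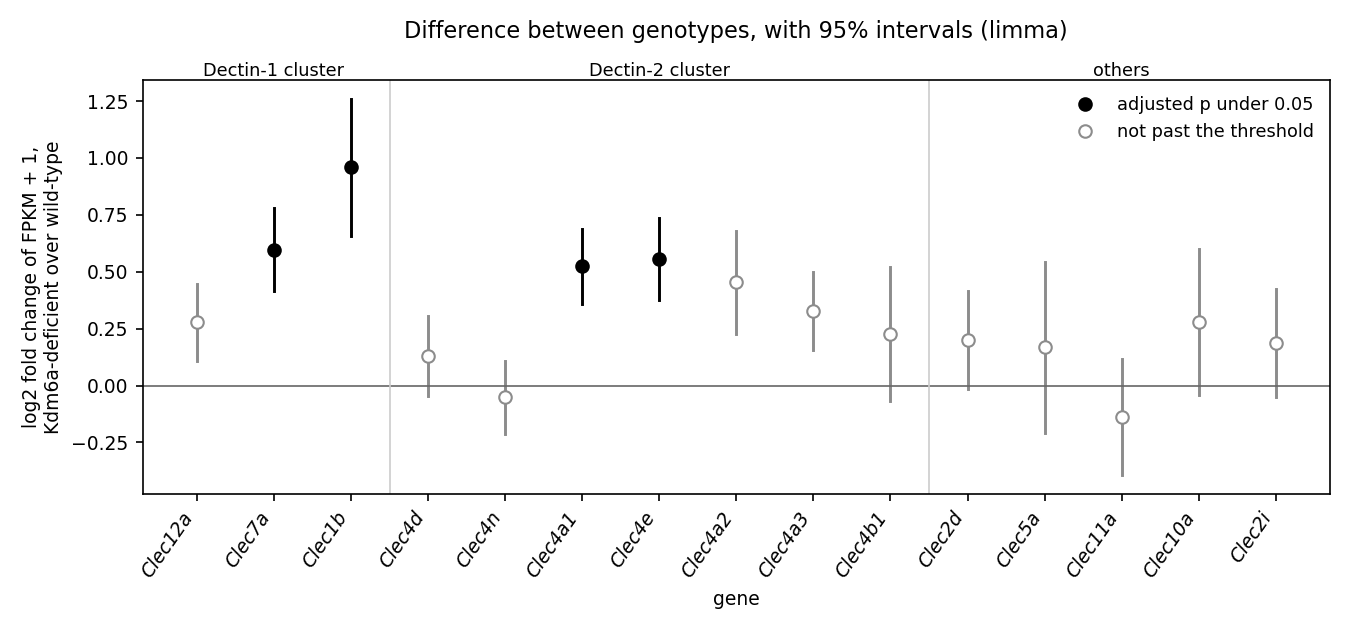
Log2 fold change of FPKM + 1, Kdm6a-deficient over wild-type, of the 15 tested Clec genes with 95% intervals from limma; filled points passed the threshold. The 4 filled points are Clec7a, Clec1b, Clec4a1 and Clec4e, and the intervals of Clec12a, Clec4a2 and Clec4a3 also lie above 0 without passing after adjustment.

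**Figure D3:**
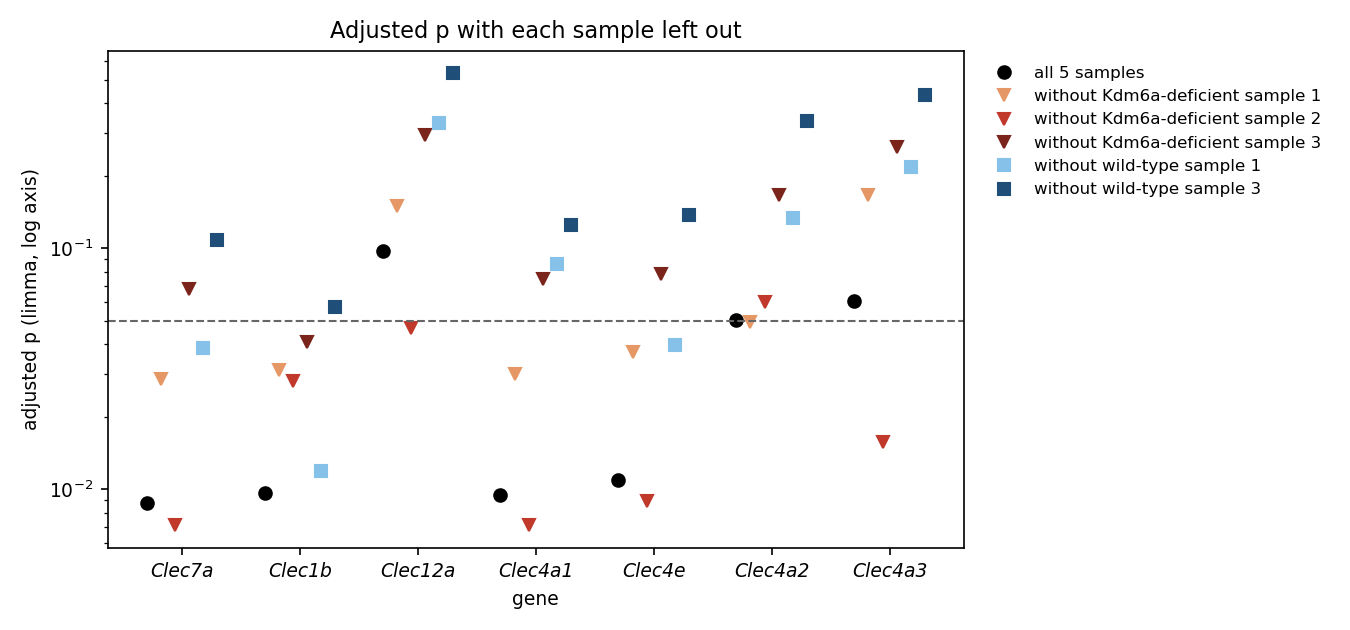
Adjusted p from limma on a log axis for the 7 Clec genes with an unadjusted p under 0.05, with all 5 samples (circles) and with each sample left out (triangles and squares); the dashed line is 0.05. The squares without wild-type sample 3 lie above the line for all 7 genes.

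In the Dectin-1 cluster the receptors Clec7a and Clec1b rose. Clec7a, the receptor of fungal beta-glucan that signals through its own hemITAM, was at 88.0, 78.1 and 83.5 FPKM in Kdm6a-deficient samples 1, 2 and 3, against 56.3 and 53.0 FPKM in wild-type samples 1 and 3. The lowest Kdm6a-deficient sample was well above the higher wild-type sample. Its means were 83.2 ± 4.96 FPKM (SD, n = 3) and 54.6 ± 2.37 FPKM (SD, n = 2), a ratio of 1.52, and it rose by 0.60 on the log2 scale (SE 0.08, limma adjusted p = 0.00878). It remained between 0.55 and 0.64 with each sample left out, but the limma adjusted p reached 0.108 when wild-type sample 3 was left out and 0.0677 when Kdm6a-deficient sample 3 was.

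Clec1b, which encodes CLEC-2, the podoplanin receptor best known from platelets, was the member with the highest log2 fold change and the lowest level among the 4. It was at 1.97, 1.82 and 1.55 FPKM in Kdm6a-deficient samples, against 0.605 and 0.269 FPKM in wild-type samples. The means were 1.78 ± 0.214 FPKM (SD, n = 3) and 0.437 ± 0.238 FPKM (SD, n = 2), and the difference was 0.96 on the log2 scale (SE 0.13, limma adjusted p = 0.00962). With a pseudocount of 0.1 FPKM in place of 1 it was 1.88. Since this gene entered the test only because the Kdm6a-deficient samples were above 1 FPKM, its call is no independent count, and without wild-type sample 3 the limma adjusted p was 0.0572. The authors' mean normalised counts, 50.6 for Kdm6a-deficient and 11.4 for wild-type BMDMs, show how few reads stood behind it. Of 8 platelet markers 5 were tested, of which 1 (Ppbp) was higher in limma and 0 were lower, and none of the 8 was at 0 in all samples. Their summed level was 443 to 570.2 FPKM in Kdm6a-deficient and 344 to 366 FPKM in wild-type samples, mostly from Pf4, which macrophages also express. Ppbp, a platelet chemokine, was at 14.2, 15.6 and 14.5 FPKM in Kdm6a-deficient samples, against 8.77 and 10.8 FPKM in wild-type samples (limma adjusted p = 0.0304). Pf4 (421 to 547 against 327 and 347 FPKM) and Itga2b (1.27 to 1.53 against 0.971 and 0.985 FPKM) were also above in every Kdm6a-deficient sample without passing, Treml1 overlapped (0.884 to 1.61 against 0.596 and 1.11 FPKM), and Itgb3 lay below (4.16 to 5.05 against 5.75 and 5.30 FPKM). The platelet glycoproteins were low in both genotypes, Gp1ba at 0.174 to 0.284 against 0.0978 and 0.292 FPKM, Gp9 at 0.12 to 0.175 against 0.244 and 0.156 FPKM and Gp6 at 0.0438 to 0.132 against 0.0595 and 0.0324 FPKM. Markers of Kupffer cells, the macrophages of the liver, moved more. Of 8 such genes 7 were tested, 4 were higher and 1, Cdh5, was lower in limma. Cdh5 is also a marker of endothelial cells. The median log2 fold change was 0.655, and none of the 8 was at 0 in all samples. The list summed to 1059 to 1242 FPKM in Kdm6a-deficient and 918 and 948 FPKM in wild-type samples. Most of this sum came from Marco, which overlapped between genotypes (759 to 880 against 752 and 773 FPKM). Cd5l, a secreted protein of tissue macrophages, was at 114, 127 and 120.0 FPKM in Kdm6a-deficient samples, against 27.3 and 27.1 FPKM in wild-type samples (log2 fold change 2.11, limma adjusted p = 5.7e-05). Spic, a regulator of red pulp macrophages in the spleen, had a log2 fold change of 1.51, Vsig4, a complement receptor, one of 1.49 and Nr1h3, the oxysterol receptor LXR alpha, one of 0.655. Vsig4, at 3.25, 3.10 and 3.76 against 0.665 and 0.442 FPKM, entered the test through Kdm6a-deficient samples alone, so its call is no independent count. Clec4f, a Clec gene of Kupffer cells that is not on this list, was listed at 0 in every sample. The shares over all tested genes were 1.73% called higher and 2.18% called lower. The part of the platelet and Kupffer cell markers in the Clec1b value was not tested. In bulk RNA, a change in the number of cells of a type and a change in RNA per cell cannot be told apart.

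Clec12a, an inhibitory receptor of myeloid cells also called MICL, was at 109, 119.8 and 111 FPKM in Kdm6a-deficient samples and at 93.8 and 92.6 FPKM in wild-type samples. The genotypes did not overlap, but its log2 fold change of 0.28 (95% interval 0.11 to 0.45) did not pass (limma adjusted p = 0.0977), although it passed without Kdm6a-deficient sample 2 (limma adjusted p = 0.0468). The remaining members of the cluster were below the tested level. Clec9a, the receptor of dendritic cells for the actin of dead cells, was at 0.0339, 0.0608 and 0.137 FPKM in Kdm6a-deficient samples and at 0.101 and 0.0442 FPKM in wild-type samples. Clec1a was at 0.0292, 0.0404 and 0.132 FPKM in Kdm6a-deficient samples, against 0.132 and 0.142 FPKM in wild-type samples, and Clec12b was above 0 in a single library, Kdm6a-deficient sample 2, at 0.0166 FPKM. Among the 10 dendritic cell markers 4 were tested, and 2 of these (Itgax, which macrophages also express, and Ccr7) were higher in limma. Ccr7, Batf3 and H2-DMb2 entered the test through Kdm6a-deficient samples alone, so the Ccr7 call is no independent count. Ccr7 was at 1.63, 2.99 and 1.73 FPKM in Kdm6a-deficient samples, against 0.202 and 0.338 FPKM in wild-type samples. Xcr1 and Cd209a were at 0 in all samples, and Flt3, Zbtb46, Siglech and Bcl11a were below the tested level. The list summed to 24.6 to 29.8 FPKM in Kdm6a-deficient samples and 14.3 and 14.9 FPKM in wild-type samples. Most of this sum came from Itgax (20.9 to 23.6 against 12.2 and 12.8 FPKM). For comparison, 1.73% of all tested genes were called higher. The part of the dendritic cell markers in the Clec values was not tested.

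In the Dectin-2 cluster Clec4a1 and Clec4e rose, while Clec4n, in the same cluster, differed by −0.05 on the log2 scale and did not pass. Clec4e encodes Mincle, which binds glycolipids of mycobacteria and ligands from dead cells and signals through Fcer1g. It was at 121, 111 and 119 FPKM in Kdm6a-deficient samples, against 82.8 and 75.7 FPKM in wild-type samples. All 3 were above both, with a ratio of means of 1.48 and a difference of 0.56 on the log2 scale (SE 0.08, limma adjusted p = 0.0109). Clec4a1, a receptor of the DCIR group also called Dcir4, was at 302, 314 and 303 FPKM in Kdm6a-deficient samples, against 209.7 and 216 FPKM in wild-type samples. Its samples were tightly grouped within each genotype, and it was higher by 0.52 on the log2 scale (SE 0.07, limma adjusted p = 0.00949). Without wild-type sample 3 the limma adjusted p was 0.138 for Clec4e and 0.125 for Clec4a1, without Kdm6a-deficient sample 3 it was 0.0779 and 0.0747, and without wild-type sample 1 that of Clec4a1 was 0.0864.

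Other DCIR genes were close to the threshold. Clec4a2, which encodes the inhibitory receptor Dcir1, was at 85.5, 91.6 and 105 FPKM in Kdm6a-deficient samples and at 69.6 and 66.6 FPKM in wild-type samples, higher by 0.45 on the log2 scale (SE 0.10, limma adjusted p = 0.0502). It passed when samples were scaled by the median of ratios (adjusted p = 0.0467) or the upper quartile (adjusted p = 0.0496), or without Kdm6a-deficient sample 1 (adjusted p = 0.0495). Clec4a3, or Dcir3, was at 83.1, 75.7 and 83.3 FPKM in Kdm6a-deficient samples against 64.8 and 63.3 FPKM in wild-type samples (log2 fold change 0.33, limma adjusted p = 0.0603), and passed without Kdm6a-deficient sample 2 (adjusted p = 0.0157). For both, no sample of either genotype fell within the range of the other. Clec4a4, or Dcir2, stayed below the tested level, at 0.66, 0.509 and 0.505 FPKM against 0.663 and 0.312 FPKM in wild-type samples. Sequence shared between genes limits 3 of these values. Of the 50-base windows of the longest GENCODE vM21 coding transcript, 8.92% in Clec4a2, 15.7% in Clec4a4 and 9.73% in Clec4b1 also occurred in another gene of this group, whereas Clec4a1, Clec4a3, Clec4d, Clec4e and Clec7a shared none with any other gene.

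Clec4d, which encodes MCL, a partner of Mincle, was the most abundant Clec gene, at 553, 579 and 559 FPKM in Kdm6a-deficient samples and 518 and 511 FPKM in wild-type samples. The samples did not overlap, but the log2 fold change of 0.13 was small (95% interval −0.04 to 0.31, limma adjusted p = 0.442). Clec4n, the mannan receptor Dectin-2 that also pairs with Fcer1g, was at 286, 293 and 285 FPKM in Kdm6a-deficient samples and 295 and 302 FPKM in wild-type samples. It was the only tested member of the cluster whose Kdm6a-deficient samples lay below both wild-type samples, by a log2 fold change of −0.05 that did not pass (95% interval −0.21 to 0.11, limma adjusted p = 0.774). Clec4b1, which encodes a DCAR receptor that pairs with Fcer1g, was at 1.85, 1.98 and 1.32 FPKM against 1.33 and 1.29 FPKM in wild-type samples, with overlapping genotypes (limma adjusted p = 0.423). Clec4b2 was at 0.382, 0.312 and 0.886 FPKM in Kdm6a-deficient samples, on both sides of the 0.574 and 0.586 FPKM of the wild-type samples.

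**Figure D4:**
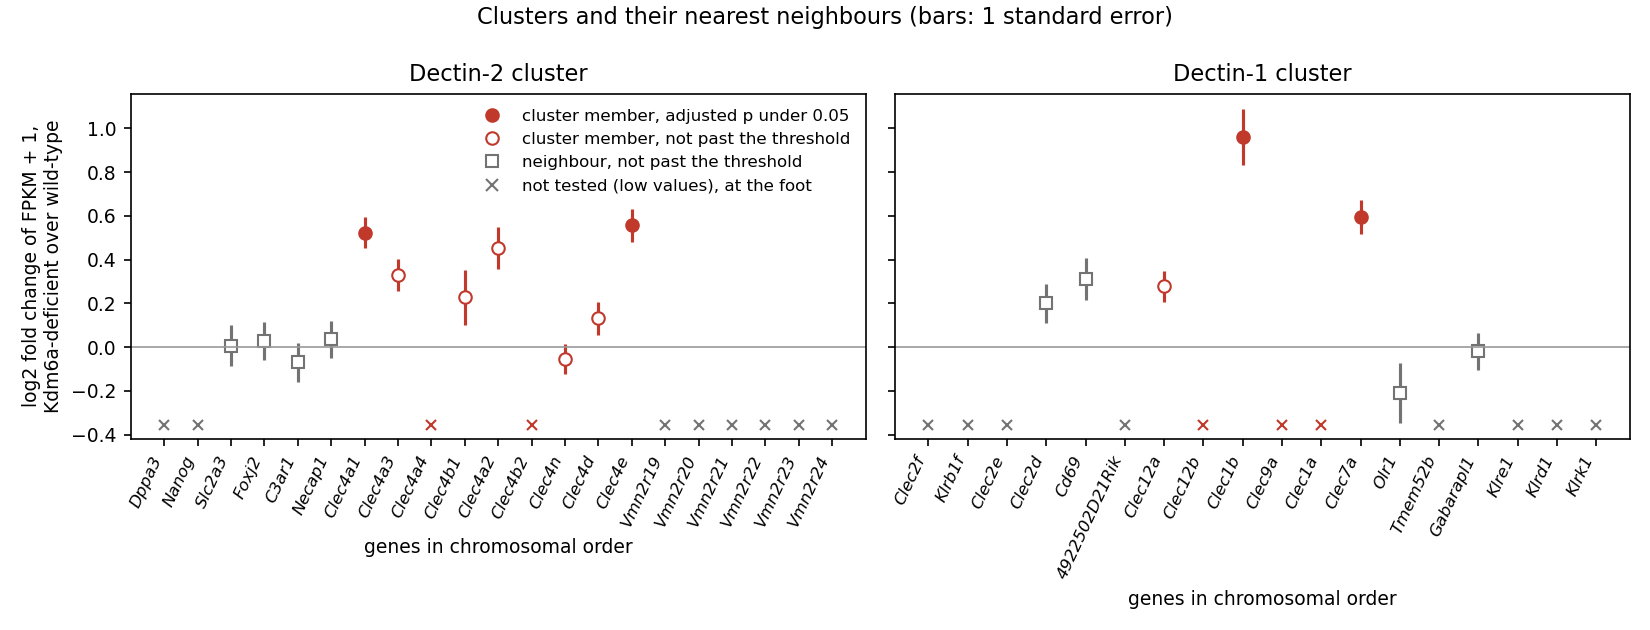
Log2 fold change of FPKM + 1, Kdm6a-deficient over wild-type, with 1 standard error, for both chromosome 6 clusters (circles) and the 6 genes on each side (squares) in the order of the RefSeq annotation of GRCm38.p6; crosses at the foot are genes below the tested level. Filled points passed, and none of the 4 tested neighbours of each cluster did.

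Of the 12 neighbours of each cluster 4 were tested, and none of these passed. So few tested genes give no ground for a contrast with the clusters, as only 1.73% of all tested genes were called higher and 2.18% lower. Before Clec4a1 on the chromosome lie Slc2a3, a glucose transporter, Foxj2, C3ar1, the receptor of the complement peptide C3a, and Necap1, which had log2 fold changes of −0.07 to 0.04, and the 6 genes after Clec4e were vomeronasal receptors listed at 0. Around the Dectin-1 cluster the 4 tested neighbours had log2 fold changes of −0.21 (Olr1) to 0.31 (Cd69). Cd69 and Clec2d, itself a Clec gene, were above both wild-type samples in every Kdm6a-deficient sample, while Olr1 and Gabarapl1 overlapped. Within the Dectin-2 cluster the 7 tested members ran from −0.05 (Clec4n) to 0.56 (Clec4e), and these sit with only Clec4d between them.

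The Clec genes outside these clusters included no member past the threshold. Clec2d, whose product is a ligand of an inhibitory receptor of natural killer cells, was at 56.6, 62.9 and 51.9 FPKM in Kdm6a-deficient samples against 48.7 and 50.2 FPKM in wild-type samples (log2 fold change 0.20, limma adjusted p = 0.326). Clec2i, of the same ligand group, was at 1.07, 0.789 and 1.04 FPKM against 0.756 and 0.696 FPKM in wild-type samples (limma adjusted p = 0.41), and Clec10a, the galactose-type receptor Mgl1 of alternatively activated macrophages, at 0.869, 1.52 and 1.29 FPKM against 0.76 and 0.887 FPKM in wild-type samples (limma adjusted p = 0.361). The Clec2d and Clec2i samples did not overlap between genotypes, whereas those of Clec10a did. Clec5a, which pairs with Tyrobp, was at 15.5, 12.7 and 14.1 FPKM in Kdm6a-deficient samples, within the 15.1 and 10.2 FPKM of the wild-type samples except for sample 1, and its log2 fold change of 0.17 turned to −0.096 without wild-type sample 3. Clec11a, which encodes a secreted growth factor of bone and marrow, was at 11.6, 13.5 and 12.9 FPKM against 12.7 and 15.6 FPKM (log2 fold change −0.14, limma adjusted p = 0.597). For Clec10a, 10.6% of the 50-base windows were shared with Mgl2.

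Among the members outside the clusters that were too low for the test, Clec16a, an endosomal protein named as a lectin by sequence, was just under it, at 0.943, 0.876 and 0.85 FPKM in Kdm6a-deficient samples and 0.858 and 0.907 FPKM in wild-type samples. Clec2g was at 0.235, 0.152 and 0.15 FPKM against 0.108 and 0.225 FPKM, and Clec14a, a protein of endothelial cells, at 0.133, 0.0759 and 0.0363 FPKM against 0.108 and 0.105 FPKM in wild-type samples. Clec2e was at 0.124, 0.133 and 0.15 FPKM in Kdm6a-deficient samples, below the 0.2 and 0.196 FPKM of the wild-type samples. Clec18a, Clec2f, Clec2h and Clec2l did not exceed 0.0432 FPKM in any sample. Clec4f, a receptor of Kupffer cells, Clec4g, of liver sinusoids, Clec3a, Clec3b and the pseudogene Clec2j were listed at 0 in every sample. With no filter on low values all 28 members above 0 were fitted, and the called members were the same 4.

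Most genes that signal below these receptors did not pass. The list held 39 adaptors, kinases, phosphatases and transcription factors, of which 37 were tested, 1 (Syk) was higher, 0 were lower and 36 did not pass, with a median log2 fold change of 0.10. A single call among 37 is near the 1.73% called higher over all tested genes. By other counts the list was further from all tested genes. In 14 of the 37 every Kdm6a-deficient value exceeded both wild-type values (16.7% of all tested genes), and in 2 they lay below (19.2%). An unadjusted limma p under 0.05 was found for 12 of the 37, against 1880 of all 10893 tested genes. Syk, the kinase that receptors with an ITAM recruit, was at 40.0, 37.4 and 41.1 FPKM in Kdm6a-deficient samples against 28.9 and 31.0 FPKM in wild-type samples (log2 fold change 0.39, SE 0.08, limma adjusted p = 0.0383). This call was lost with each sample left out except Kdm6a-deficient sample 2 (limma adjusted p = 0.113 to 0.21), and narrowly with no filter, no intensity trend, quantile normalization or the upper quartile (0.0532 to 0.0555). The adaptor Fcer1g was at 1608, 1843 and 1677 FPKM against 1488 and 1499 FPKM in wild-type samples, a difference of 0.19 on the log2 scale (limma adjusted p = 0.383) that quantile normalization turned to −0.00961. The adaptor Tyrobp was at 982, 1353 and 1169 FPKM against 1027 and 1076 FPKM, with overlapping genotypes. Card9, which links Syk to NF-kB, was at 6.03, 5.99 and 5.50 FPKM against 5.56 and 5.54 FPKM. The table assigned 112 genes to the KEGG pathway of C-type lectin receptor signalling, a list used here after the table was seen, and 7 of them are Clec genes. Of the other 105 genes 82 were tested, 7 were higher (Casp1, Cd209f, Ikbke, Il10, Il1b, Syk and Tnf) and 1, Rras2, was lower in limma, with a median log2 fold change of 0.04. These counts stand beside 1.73% called higher and 2.18% called lower over all tested genes.

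C-type lectin domain genes with other symbols moved in both directions. Of 53 such genes 52 were in the table and 18 were tested, of which 1 was higher, 3 were lower and 14 did not pass, with a median log2 fold change of −0.04. Among all tested genes the shares called were 1.73% higher and 2.18% lower. Cd209f, of the DC-SIGN family, rose to 1.51, 1.33 and 1.54 FPKM in Kdm6a-deficient samples, against 0.285 and 0.348 FPKM in wild-type samples (log2 fold change 0.90, SE 0.09, limma adjusted p = 0.00304), and like Clec1b it entered the test through Kdm6a-deficient samples alone. Mrc2, a collagen receptor of fibroblasts and macrophages, fell to 20.1, 21.1 and 20.2 FPKM, against 29.6 and 32.2 FPKM in wild-type samples (log2 fold change −0.57, limma adjusted p = 0.00805). Cd248, a protein of stromal cells, fell to 15.6, 17.6 and 15.2 FPKM, against 23.2 and 27.9 FPKM (limma adjusted p = 0.0214), and Cd72 to 42.0, 48.8 and 41.7 FPKM, against 60.1 and 60.4 FPKM (limma adjusted p = 0.0395). The calls of Mrc2, Cd248 and Cd72 were lost without wild-type sample 3 or Kdm6a-deficient sample 3 (limma adjusted p = 0.0638 to 0.266), those of Cd248 and Cd72 also without Kdm6a-deficient sample 1, and that of Cd72 also without wild-type sample 1. Of 13 stromal markers 11 were tested, 4 were lower and 1 was higher in limma, and the list summed to 2332 to 2351 FPKM in Kdm6a-deficient and 3042 and 3227 FPKM in wild-type samples, with none at 0 in all samples. Lum, which is among the lower stromal markers, entered the test through wild-type samples alone. The part of the stromal markers in the Mrc2 and Cd248 values was not tested. Mrc1, the mannose receptor CD206, was at 43.6, 34.5 and 43.6 FPKM in Kdm6a-deficient samples, which overlapped the 40.0 and 35.1 FPKM of the wild-type samples. Mgl2, the galactose-type receptor next in sequence to Clec10a, was at 0.174, 0.117 and 0.151 FPKM against 0.0247 and 0.0219 FPKM, too low for the test.

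**Figure D5:**
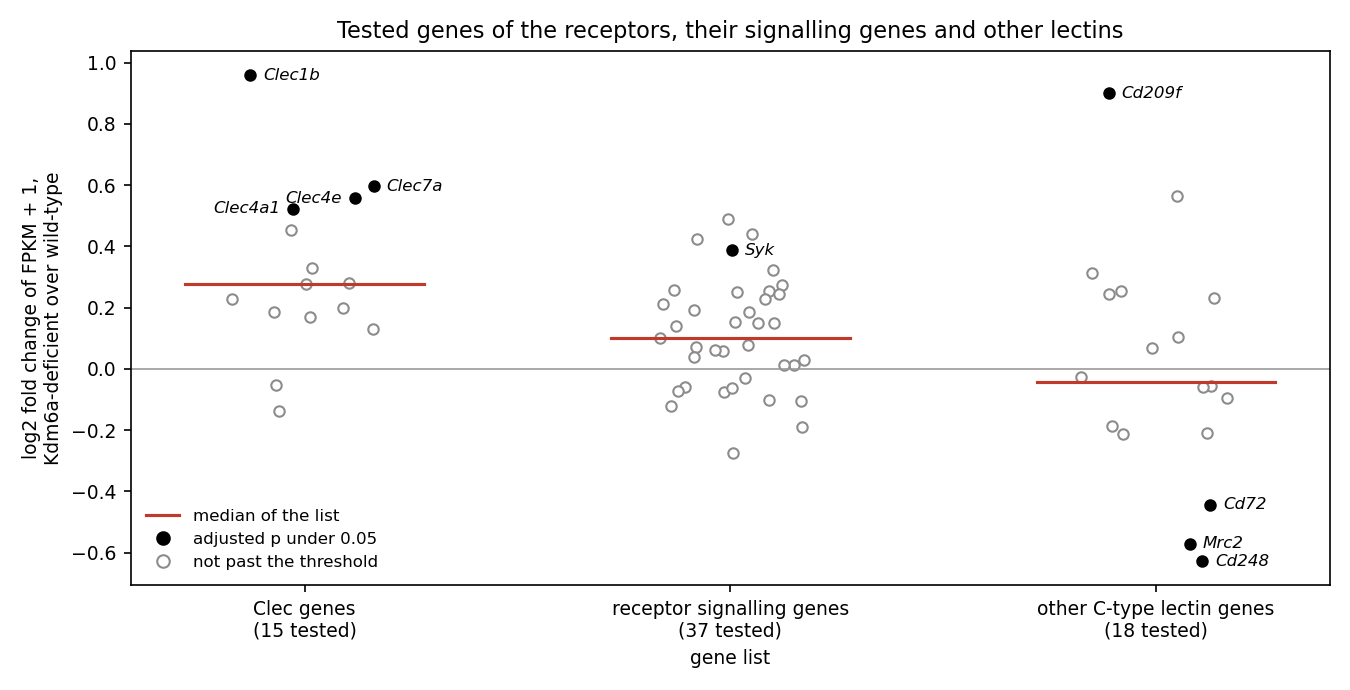
Log2 fold change of FPKM + 1, Kdm6a-deficient over wild-type, of the tested Clec genes, the receptor signalling genes and the other C-type lectin domain genes, with a red line at the median of each list (0.28, 0.10 and −0.04). Filled points passed the threshold and carry their names.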

How the data were processed

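The 3 Kdm6a-deficient and 2 wild-type RNA-Seq samples of BMDMs under LPS were grouped by their labels. TopHat and Cufflinks served the authors for mapping and for FPKM values. The deposited table also holds a signal value per genotype, the mean count after DESeq scaling, and the authors' fold changes and p-values, which were not used. The submitters' processing notes list Bowtie 0.12.2 and the builds mm8 and mm9 without a role, and no source used here gives other versions. The smallest steps of the wild-type mean come in 3 sizes, and the 222 genes at 1 of them (0.308) were above 0 FPKM in only 2 and 1 cases in wild-type samples 1 and 3, so that mean includes a sample not analysed here.

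limma-trend was run on log2(FPKM + 1), without a block, on genes that reached 1 FPKM in at least 2 samples, with Benjamini-Hochberg adjustment over all 10893 genes tested. The members, lists and tests were chosen with earlier results of these data known. With 3 against 2 samples the smallest two-sided p of an exact permutation is 0.1. All 33 members were accounted for. Values per sample were given for tested members and for those reaching 0.1 FPKM, for genes past the threshold in the lists of signalling and other C-type lectin genes (at most 6 each), and for Mrc1, Mgl2, Syk, Card9, Fcer1g, Tyrobp and Kdm6a, and neighbouring genes, KEGG genes and the single markers named were added after the values were seen. The script was checked on simulated data. Alternatives were no filter, a filter on all 5 samples, a pseudocount of 0.1 FPKM, 3 other scalings, a replicate block, no intensity trend and each sample left out. Of the marker lists, those of neutrophils (1 higher and 0 lower of 10 tested), T or NK cells (1 and 0 of 1), B cells (0 and 0 of 3), endothelium (0 and 2 of 6) and osteoclasts (0 and 3 of 5) are not described in the report. Among these calls, Ctsg (neutrophils) entered the test through Kdm6a-deficient samples alone and Tie1 (endothelium) through wild-type samples alone. Over all tested genes 1.73% were called higher and 2.18% lower. Promoters are from RefSeq (GRCm38.p6), transcripts from GENCODE vM21. Tests ran in limma 3.58.1 under R 4.3.3, and figures and summaries in matplotlib 3.10.9 and pandas 2.3.3 under Python 3.11.15.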

Additional observations from a re-analysis of the deposited data

How the results depend on the processing

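The log2 fold changes of Clec7a, Clec1b, Clec4a1 and Clec4e kept their sign in all alternatives run, and all 4 passed with a pseudocount of 0.1 FPKM, no filter, quantile normalization, the median of ratios, the upper quartile, a replicate block and no intensity trend. Clec1b could not be tested with the filter on all 5 samples. With each sample left out the number of higher Clec genes was 0 to 6, of signalling genes 0 to 3 and of other C-type lectin genes 1, and of lower other C-type lectin genes 0 to 3. No alternative called a lower Clec or signalling gene. With no filter 0 signalling genes were higher, and 2 other C-type lectin genes were higher and 1 was lower. With the filter on all 5 samples 0 other C-type lectin genes were higher, and without the intensity trend 0 signalling genes were. With each sample left out the log2 fold change of Clec11a was −0.276 to 5.84e-05 and that of Clec5a −0.096 to 0.433, turning sign without wild-type sample 3, and that of Fcer1g was −0.00961 with quantile normalization. The cause was not tested. The genotypes share replicate numbers 1 and 3 only, and the deviations of same-numbered samples had correlations of 0.432 and −0.144, so the numbers were not taken as pairs. With the replicate block Clec12a (adjusted p = 0.0286), Clec4a2 (0.0331) and Clec4a3 (0.0101) passed beside the 4, so that 7 Clec, 6 signalling and 4 other C-type lectin genes were higher, and over all genes 436 were higher and 560 lower, against 188 and 238 without it. Leaving out single samples gave 46 to 281 higher and 35 to 397 lower genes. With 1 wild-type sample left, that sample is assumed to vary like the others.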

Other observations

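For Clec4b1 the deposited quantities differ in size. Its FPKM averaged 1.72 ± 0.353 (SD, n = 3) in Kdm6a-deficient and 1.31 ± 0.0255 (SD, n = 2) in wild-type samples, while the authors' mean normalised counts are 64.6 and 30.8, the second of which includes a wild-type sample not analysed here. The cause was not tested. Clec16a was under the level tested at 0.889 ± 0.048 FPKM (SD, n = 3) in Kdm6a-deficient and 0.882 ± 0.0349 FPKM (SD, n = 2) in wild-type samples, with authors' mean normalised counts of 570 and 594, so a filter on FPKM left out a gene with many reads. The gene 4922502D21Rik, which RefSeq names Clec2m and the rule for symbols did not take, was at 0.0499, 0.0476 and 0.0518 FPKM in Kdm6a-deficient samples and listed at 0 in both wild-type samples.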
